A study of Arabidopsis thaliana with 32 samples.

Results

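The genes described here are 48 nuclear genes of Arabidopsis thaliana that encode the light-harvesting antenna proteins, subunits of photosystems I and II, the small subunit of Rubisco and Rubisco activase. They were listed by name and function and not by a measured value, but with earlier results of these data known. They make up 48 of the 33341 genes in the count table. By role they are 14 LHCB genes for the antenna of photosystem II, 6 LHCA genes for the antenna of photosystem I, 12 photosystem I subunits, 11 photosystem II subunits, and 5 genes for Rubisco, of which 4 encode the small subunit (RBCS) and 1 encodes the activase (RCA). RNA was sequenced from leaves of 3-week-old Col-0 plants grown in 16 h of light and 8 h of dark, with 2 libraries for each of 4 genotype labels. The labels are wild type, atxr5/6, gcn5 and atxr5/6 gcn5. ATXR5 and ATXR6 methylate histone H3.1, and GCN5 acetylates histones. The labels name no allele, no time of day at harvest and no number of plants per library, and nothing says that the 2 libraries of a genotype came from separate plants. The p-values below therefore measure the spread between these libraries, which may be technical. The 24 chromatin samples of the series were not used here.

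Photosynthesis in leaves begins in the thylakoid membranes of the chloroplast. Antenna proteins of the LHCB and LHCA families bind chlorophyll and pass light energy to photosystem II and photosystem I. The photosystems then move electrons from water to ferredoxin. The reaction-centre core proteins are encoded in the plastid, whereas the antenna proteins and the outer subunits considered here are encoded in the nucleus, made in the cytosol and imported. Rubisco, the enzyme that fixes carbon dioxide, has a plastid-encoded large subunit and a small subunit encoded by the nuclear RBCS genes. These genes are known for high expression in green leaf cells and for control by light and by the circadian clock.

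The gene table held between 24860332 and 43969417 counts per library. Of the 48 genes, 47 had counts and passed the low-count filter, and the smallest count of any of them in any library was 215. LHCB1.5 (AT2G34420) had 0 counts in all 8 libraries and was not tested. In the RefSeq annotation it is overlapped along 100% of its length by a long non-coding RNA gene, AT2G08665, which also had 0 counts, and whether the overlap bears on the missing counts was not tested. The targeted genes gave an uneven check of the labels. ATXR5 stood at 3.26 and 3.21 CPM (counts scaled to each library's effective total) in wild type, 0.777 and 0.850 in atxr5/6, 1.95 and 2.07 in gcn5, and 0.229 and 0.171 in atxr5/6 gcn5. ATXR6 had 0.456 and 0.463 CPM in wild type, 0.216 and 0.196 in atxr5/6, 0.893 and 0.753 in gcn5, and 0.588 and 0.377 in atxr5/6 gcn5. These values rest on 6 to 22 counts per library. In the combined mutant ATXR6 overlapped wild type, while both libraries lay below both gcn5 libraries without a call (log2 fold change −0.76, adjusted p = 0.857 by edgeR). GCN5 (listed as HAG1) lay between 4.25 and 6.11 CPM in every library, so its count does not check the gcn5 label. Genotype names below are used as the labels give them, and gcn5 stands for the libraries so labelled.

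Photosynthesis genes were lower in the libraries labelled gcn5. Against wild type, 42 of the 47 genes tested fell, none rose, and 5 did not pass an adjusted p of 0.05 (edgeR quasi-likelihood test, Benjamini-Hochberg adjustment over 19575 genes). Over all genes tested in this comparison, 37.5% were called, 19.4% as lower and 18.1% as higher. On library totals alone 36 of the 47 fell and none rose, while over all genes 3493 fell and 1345 rose, in place of 3806 and 3537. The median log2 fold change of the 47 genes was −0.72, beside 0.01 for all genes tested, and it ranged from −2.20 for RBCS2B to 0.13 for LHCA6. Of the 47 genes, 32 were lower by more than 1.5-fold and 4 by more than 2-fold. In 45 of the 47, all 4 libraries carrying the gcn5 label lay below all 4 libraries without it, and LHCA6 and PSAE2 were the exceptions. Of all genes tested, 19.9% lay below in this way and 22.3% above. Without gcn5 replicate 2 the gcn5 calls of LHCB4.1, LHCA1, PSAH1, PSAH2, PSBQ1, PSBTN and RBCS1B were lost. Without wild-type replicate 1 that of PSAH2 was lost, and on library totals those of LHCB4.1, LHCA1, LHCA5, PSAD1, PSBQ1 and PSBTN.

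**Figure D1:**
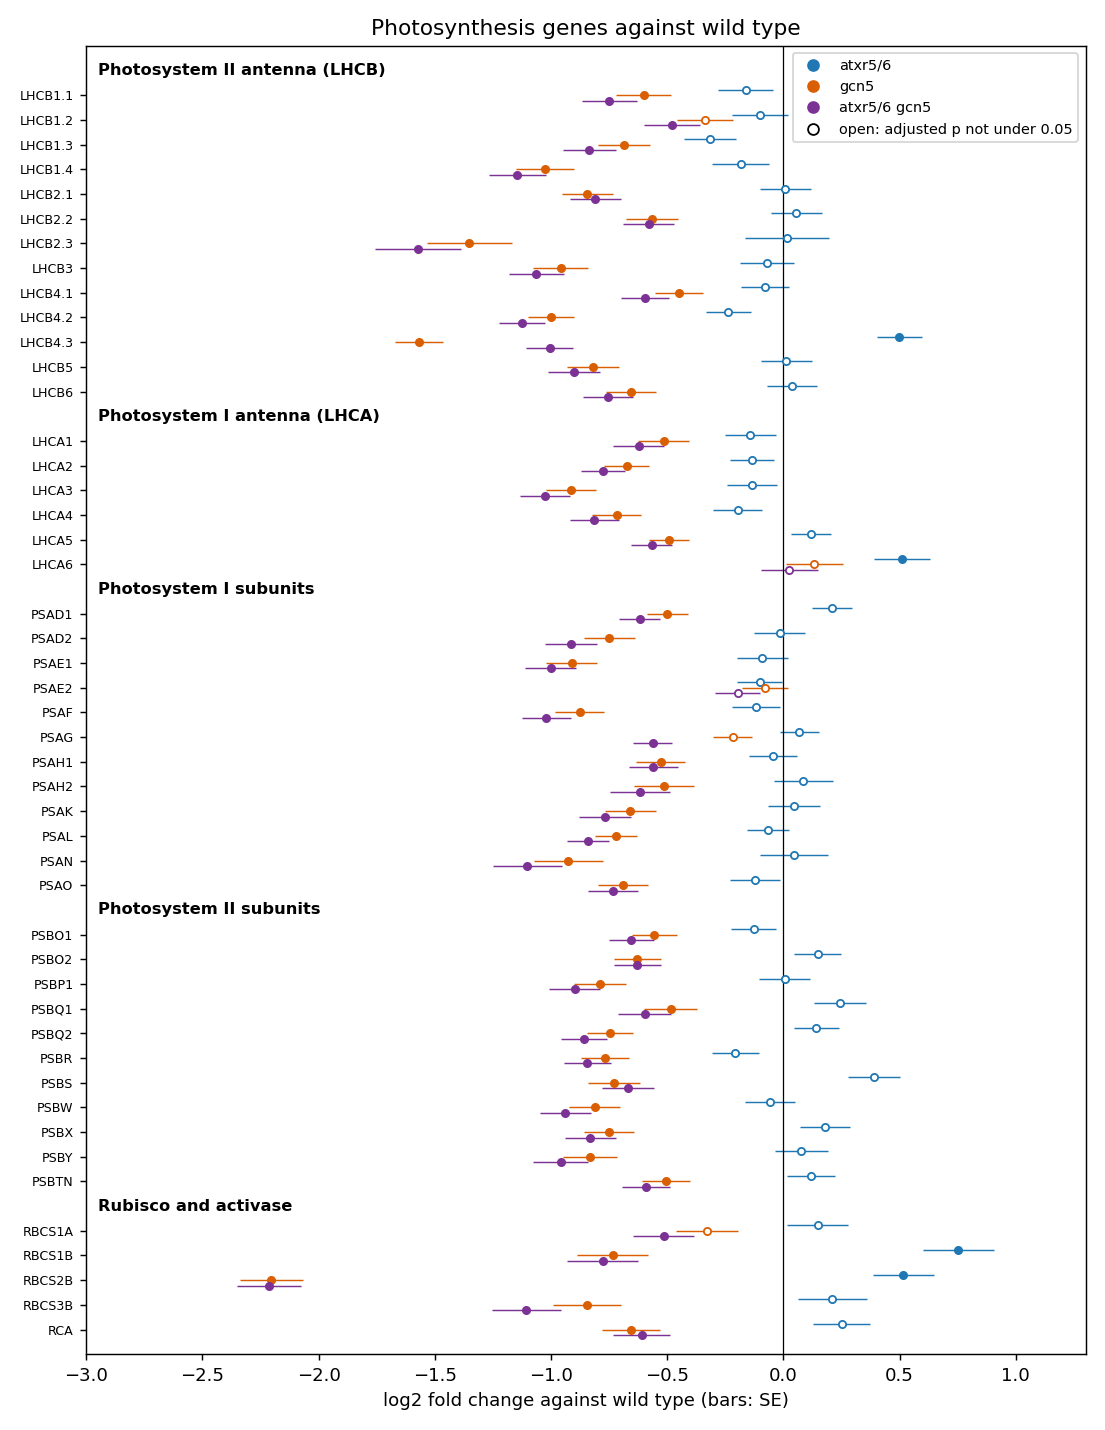
Log2 fold change of each of the 47 tested genes against wild type in atxr5/6, gcn5 and atxr5/6 gcn5, with bars for the SE and filled points for an adjusted p under 0.05. Nearly all gcn5 and atxr5/6 gcn5 points lie left of 0 and overlap each other, while the atxr5/6 points lie around 0, with LHCB4.3, LHCA6, RBCS1B and RBCS2B to the right.

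Other measures moved with the gcn5 label. Nuclear rDNA features held 0.294% to 2.37% of all counts in the 4 libraries without the label and 13.3% to 21.6% in the 4 with it, and plastid genes held 53.8% to 57.4% against 43.2% to 46.5%. The rDNA share separates the libraries exactly as the label does, so the label and the rDNA content of the library cannot be told apart. With the log2 rDNA share as a covariate none of the 47 genes was called in any of the 6 comparisons by edgeR, and over all 19575 genes 0 were called in gcn5 against wild type, 0 in atxr5/6 gcn5 against wild type and 13 in atxr5/6 gcn5 against atxr5/6. In those comparisons the 0 of 47 is read against almost no calls over all genes and says nothing about the members, while in atxr5/6 against wild type 592 genes, or 3.02%, were still called. In gcn5 against wild type, 6 of the 47 then had an unadjusted p under 0.05 and the median log2 fold change was −0.61. When organelle genes and rDNA features were left out of the table before scaling, 43 of the 47 were called lower in gcn5. The mesophyll markers CA1 and CA2, which encode carbonic anhydrases of green leaf cells, summed to between 879 and 1227 CPM without the gcn5 label and to between 299 and 387 CPM with it, and both were called lower in gcn5. All 3 guard cell markers were called lower in gcn5 (summed level 18.1 to 27.8 CPM without the label, 10.9 to 14.3 with it), as were both phloem companion cell markers (241 to 268 against 136 to 145 CPM). The 4 epidermis markers summed to between 218 and 267 CPM without the label and to between 203 and 233 with it, and 1 of them, KCS10, was called lower. Xylem markers summed to 20.1 to 24.9 CPM without the label and 14.3 to 18.2 with it, and markers of dividing cells to 7.84 to 10.3 against 10.4 to 14.1, with 1 of 2 and 0 of 3 called in gcn5. The ranges of senescence markers (40.2 to 53.5 against 45.7 to 51.4 CPM) and flower markers (1.16 to 1.57 against 0.568 to 1.92) overlapped. Of the 4 senescence markers 1 was called in gcn5, SAG13 as higher (log2 fold change 1.93), while SAG12 had −2.22 without a call, and 0 of the 2 flower markers were called. The root hair markers lay at 0 to 0.0753 CPM, with EXPA7 at 0 in every library. In such bulk samples fewer cells of a type and less RNA per cell cannot be told apart, and the part of these measures in the lower photosynthesis counts was not tested.

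In wild type, 18.0% ± 0.582 (SD, n = 2) of the counts on nuclear protein-coding genes fell on the 48 photosynthesis genes. The share was 18.1% ± 0.0472 in atxr5/6. It was smaller with the gcn5 label, at 12.5% ± 0.734 in gcn5 and 11.8% ± 0.850 with both labels. All 5 roles were smaller with the gcn5 label, among them the LHCB genes, at 8.05% and 7.74% in the wild-type libraries and 5.70% and 5.16% in gcn5. In atxr5/6 the roles differed in direction. The LHCB genes held 7.44% and 7.48% of counts, below both wild-type libraries, whereas Rubisco and its activase held 3.04% and 3.10%, above the 2.54% and 2.43% of wild type. These role shares were not tested. Of all single genes, 29.6% lay above wild type and 31.6% below without overlap in this comparison. No LHCB gene was called lower there, while RBCS1B and RBCS2B were called higher. A share can fall because other genes rise, and no absolute RNA amount was measured.

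**Figure D2:**
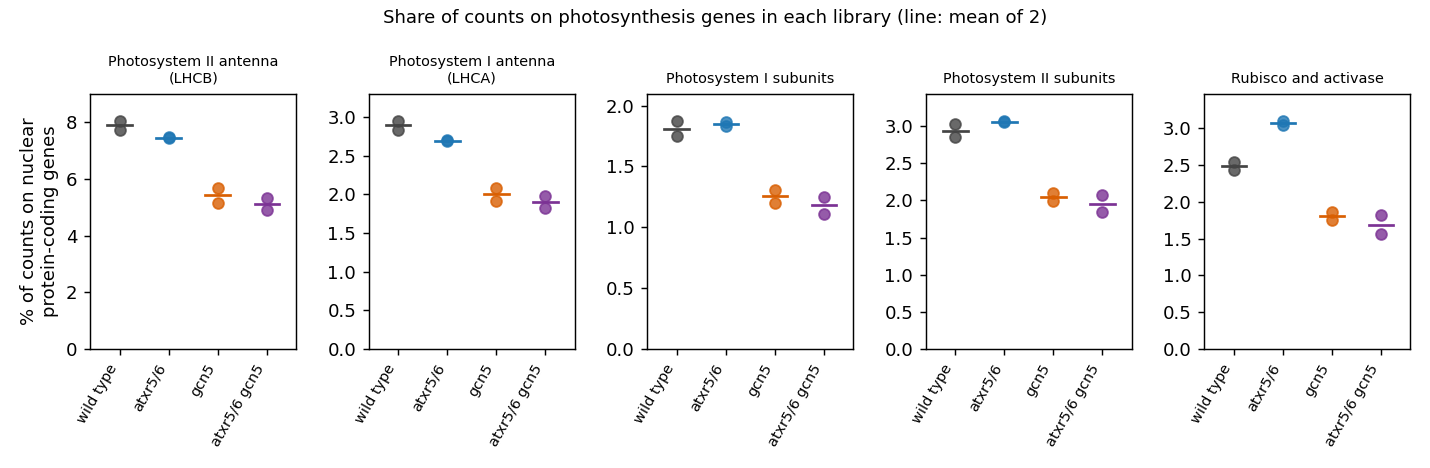
Share of the counts on nuclear protein-coding genes held by each role in each of the 8 libraries, in percent, with points for libraries and a line for the mean of 2. In every panel the 4 libraries with the gcn5 label lie below the 4 without it, and in the Rubisco panel the atxr5/6 libraries, at 3.04% and 3.10%, lie above wild type.

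The LHCB genes encode the antenna of photosystem II. LHCB1, LHCB2 and LHCB3 proteins form trimers, and LHCB4, LHCB5 and LHCB6 are single-chain antennae that join the trimers to the core. In gcn5, 12 of the 13 tested were called lower, and their median log2 fold change was −0.82. LHCB1.3 (AT1G29930), the gene with the most counts of the 48 (not adjusted for length), had 9295 and 9534 CPM in wild type, 7519 and 7599 in atxr5/6, 5998 and 5714 in gcn5, and 4994 and 5566 in atxr5/6 gcn5. It was lower in gcn5 (log2 fold change −0.68, SE 0.112, adjusted p = 0.00326). Its atxr5/6 libraries also lay below wild type, with the lowest log2 fold change of any member in that comparison, but the difference of −0.32 (SE 0.112) did not pass, with an adjusted p of 0.102. LHCB1.2 (AT1G29910), which lies beside LHCB1.1 and LHCB1.3 on chromosome 1, had 2774 and 2566 CPM in wild type, 2507 and 2469 in atxr5/6, 2268 and 1963 in gcn5, and 1764 and 2066 in atxr5/6 gcn5. Both gcn5 libraries lay below both wild-type libraries, but its log2 fold change was −0.34 (SE 0.121, adjusted p = 0.0589), and it was the only LHCB gene not called there. LHCB1.4 (AT2G34430), from the pair of LHCB1 genes on chromosome 2, had 2297 and 2118 CPM in wild type, 1921 and 1965 in atxr5/6, 1204 and 965 in gcn5, and 1033 and 965 in atxr5/6 gcn5. In gcn5 it fell (log2 fold change −1.03, SE 0.123, adjusted p = 0.000971). The LHCB genes not given by library here or below were all lower in gcn5, with log2 fold changes for LHCB1.1 (−0.60), LHCB2.1 (−0.84), LHCB3 (−0.96), LHCB5 (−0.82) and LHCB6 (−0.66), and none of them was called in atxr5/6.

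LHCB4.3 (AT2G40100) had the fewest counts of the 47 genes, and it is a form of LHCB4 that in Arabidopsis is also called LHCB8. It had 24.8 and 26.0 CPM in wild type, 34.8 and 36.8 in atxr5/6, 9.01 and 8.09 in gcn5, and 13.3 and 11.9 in atxr5/6 gcn5. The 4 genotypes did not overlap. It fell in gcn5 (log2 fold change −1.57, SE 0.104, adjusted p = 0.000104), 2.96-fold, the largest decrease among the antenna genes, and it was higher in atxr5/6 (0.50, SE 0.0964, adjusted p = 0.0154). Its paralogue LHCB4.1 (AT5G01530) had 1547 and 1529 CPM in wild type, 1459 and 1453 in atxr5/6, 1141 and 1111 in gcn5, and 930 and 1106 in atxr5/6 gcn5. The gcn5 decrease of LHCB4.1 was smaller (−0.45, SE 0.104, adjusted p = 0.0122) and was not called without gcn5 replicate 2 (adjusted p = 0.0696). LHCB4.2 (AT3G08940) had 1411 and 1393 CPM in wild type, 1179 and 1202 in atxr5/6, 748 and 656 in gcn5, and 617 and 671 in atxr5/6 gcn5. It was lower in gcn5 (log2 fold change −1.0, SE 0.0992, adjusted p = 0.000467) and its value in atxr5/6 was −0.24 (adjusted p = 0.155), and LHCB4.2 and LHCB4.3 had the widest gap of any paralogue pair in atxr5/6. LHCB2.3 (AT3G27690) had 602 and 498 CPM in wild type, 557 and 554 in atxr5/6, 260 and 171 in gcn5, and 184 and 186 in atxr5/6 gcn5. In gcn5 it fell (log2 fold change −1.35, SE 0.184, adjusted p = 0.00153), whereas its paralogue LHCB2.2 (AT2G05070) fell by 0.57 on the log2 scale (SE 0.111, adjusted p = 0.0065). LHCB2.3 overlaps a neighbouring protein-coding gene, AT3G27700, along 37.6% of its length in RefSeq.

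The LHCA genes encode the photosystem I antenna. LHCA1 to LHCA4 make up its crescent of chlorophyll proteins, and LHCA5 and LHCA6 are minor forms known for joining photosystem I to the NDH complex. In gcn5, 5 of 6 were called lower and LHCA6 was not. LHCA3 (AT1G61520) had 3138 and 2990 CPM in wild type, 2815 and 2766 in atxr5/6, 1677 and 1574 in gcn5, and 1395 and 1615 in atxr5/6 gcn5. Its decrease in gcn5 was the largest of the group (log2 fold change −0.91, SE 0.108, adjusted p = 0.000897). LHCA4 (AT3G47470) had 4242 and 4143 CPM in wild type, 3658 and 3657 in atxr5/6, 2703 and 2396 in gcn5, and 2315 and 2458 in atxr5/6 gcn5. Its log2 fold change was −0.72 in gcn5 (SE 0.105, adjusted p = 0.00209), and −0.20 in atxr5/6 (SE 0.105, adjusted p = 0.258). LHCA6 (AT1G19150) was the antenna gene with a value above 0 in gcn5. It had 35.0 and 32.6 CPM in wild type, 48.8 and 47.4 in atxr5/6, 36.4 and 37.7 in gcn5, and 30.1 and 38.6 in atxr5/6 gcn5. The atxr5/6 libraries were the highest, and the call there (0.51, SE 0.121, adjusted p = 0.0309) was one of the 4 among the photosynthesis genes. Among the rest, LHCA1 (−0.51), LHCA2 (−0.67) and LHCA5 (−0.49) were called lower in gcn5 and not in atxr5/6. In gcn5 the LHCA6 log2 fold change was 0.13 (SE 0.122, adjusted p = 0.419).

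The photosystem I subunits include PSAD and PSAE, which dock ferredoxin on the stromal side, PSAF and PSAN, which bind plastocyanin on the lumen side, and PSAH, PSAL and PSAO, which take part in binding the mobile antenna. In gcn5, 10 of the 12 were called lower, and their median log2 fold change was −0.67. PSAN (AT5G64040) had 859 and 717 CPM in wild type, 824 and 800.5 in atxr5/6, 441 and 388 in gcn5, and 319 and 415 in atxr5/6 gcn5, and it had the largest decrease of the group (−0.93, SE 0.147, adjusted p = 0.00292). The PSAE genes had unlike values, and the difference between them was not tested. PSAE1 (AT4G28750) had 473 and 433 CPM in wild type, 438 and 412 in atxr5/6, 250 and 231 in gcn5, and 207 and 246 in atxr5/6 gcn5, and it fell in gcn5 (−0.91, SE 0.110, adjusted p = 0.000981). PSAE2 (AT2G20260) had 199 and 193 CPM in wild type, 185 and 179 in atxr5/6, 193 and 177 in gcn5, and 158 and 183 in atxr5/6 gcn5. Its wild-type and gcn5 libraries overlapped, while both atxr5/6 and both atxr5/6 gcn5 libraries lay below wild type. Its log2 fold change in gcn5 was −0.08 (SE 0.0979, adjusted p = 0.557), and it was called in none of the 6 comparisons. The PSAD genes lay closer together. PSAD1 (AT4G02770) had 553 and 534 CPM in wild type, 632 and 624 in atxr5/6, 402 and 367 in gcn5, and 345 and 363 in atxr5/6 gcn5, which gave −0.50 in gcn5 (SE 0.0869, adjusted p = 0.00408), beside −0.75 for PSAD2 (SE 0.111, adjusted p = 0.00216). In atxr5/6, PSAD1 had the highest log2 fold change of these subunits (0.21, SE 0.0867, adjusted p = 0.153) and PSAO the lowest (−0.12, SE 0.107, adjusted p = 0.503). PSAO (AT1G08380) had 1182 and 1158 CPM in wild type, 1078 and 1072 in atxr5/6, 773 and 679 in gcn5, and 652 and 757 in atxr5/6 gcn5. PSAF (−0.88), PSAH1 (−0.53), PSAH2 (−0.51), PSAK (−0.66) and PSAL (−0.72) were also called lower in gcn5. PSAG (AT1G55670), which stabilizes photosystem I, had 101 and 97.7 CPM in wild type, 105 and 104 in atxr5/6, 84.8 and 86.4 in gcn5, and 64.5 and 70.3 in atxr5/6 gcn5. It was the other subunit not called in gcn5, at −0.22 (SE 0.0829, adjusted p = 0.0707). In RefSeq, PSAG is overlapped along 61.4% of its length by AT1G55673, which had 0 counts in all libraries, and PSAH1 along 49.0% by AT3G16130, which had 14 counts in all.

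Of the 5 roles, the photosystem II subunits had the narrowest range in gcn5. PSBO, PSBP and PSBQ shield the oxygen-evolving manganese cluster, PSBS triggers the dissipation of excess light as heat, and PSBR, PSBW, PSBX, PSBY and PSBTN are small proteins of the complex. All 11 were called lower in gcn5, with log2 fold changes from −0.83 to −0.49 and a median of −0.75. PSBY (AT1G67740), at the low end, had 277 and 243 CPM in wild type, 289 and 260 in atxr5/6, 156 and 136 in gcn5, and 126 and 142 in atxr5/6 gcn5 (−0.83 in gcn5, SE 0.116, adjusted p = 0.00175). PSBQ1 (AT4G21280), at the high end, had 441 and 406 CPM in wild type, 504 and 498 in atxr5/6, 309 and 296 in gcn5, and 250 and 310 in atxr5/6 gcn5. Its gcn5 decrease (−0.49, SE 0.114, adjusted p = 0.0129) was not called without gcn5 replicate 2 (adjusted p = 0.0776) or on library totals alone (0.0663). PSBS (AT1G44575) had 427 and 385 CPM in wild type, 541 and 523 in atxr5/6, 250 and 241 in gcn5, and 230 and 280 in atxr5/6 gcn5. Its atxr5/6 libraries lay above wild type, but the difference (0.39, SE 0.112) missed the threshold (adjusted p = 0.0553), and it fell in gcn5 (−0.73, SE 0.112, adjusted p = 0.00256). PSBR (AT1G79040), a small subunit that helps oxygen evolution, had 2034 and 2115 CPM in wild type, 1759 and 1835 in atxr5/6, 1252 and 1185 in gcn5, and 1081 and 1232 in atxr5/6 gcn5, with −0.21 in atxr5/6 (SE 0.101, adjusted p = 0.218) and −0.77 in gcn5 (SE 0.101, adjusted p = 0.00135). The other 7 genes had log2 fold changes in gcn5 from −0.81 (PSBW) to −0.51 (PSBTN).

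Of the 5 roles, the Rubisco genes had the widest range in gcn5. Arabidopsis has 4 RBCS genes, with RBCS1A on chromosome 1 and RBCS1B, RBCS2B and RBCS3B beside each other on chromosome 5. RBCS1A (AT1G67090) had 4049 and 3698 CPM in wild type, 4396 and 4183 in atxr5/6, 3134 and 3038 in gcn5, and 2388 and 3031 in atxr5/6 gcn5. Its gcn5 libraries lay below wild type, but the difference of −0.33 on the log2 scale (SE 0.132) did not pass (adjusted p = 0.0844). RBCS2B (AT5G38420) had 983 and 819 CPM in wild type, 1312 and 1265 in atxr5/6, 217 and 175 in gcn5, and 200 and 188 in atxr5/6 gcn5. This was the largest decrease among the photosynthesis genes, 4.60-fold (log2 fold change −2.20, SE 0.136, adjusted p = 9.59e-05). RBCS3B (AT5G38410) had 2341 and 2039 CPM in wild type, 2595 and 2475 in atxr5/6, 1268 and 1170 in gcn5, and 871 and 1165 in atxr5/6 gcn5 (−0.85 in gcn5, SE 0.148, adjusted p = 0.00416). RBCS1B (AT5G38430) had 358 and 312 CPM in wild type, 574 and 556 in atxr5/6, 202 and 201 in gcn5, and 162 and 229 in atxr5/6 gcn5. It fell in gcn5 (−0.73, SE 0.153, adjusted p = 0.00823), though not without gcn5 replicate 2 (adjusted p = 0.0516). RCA (AT2G39730), which frees Rubisco of bound sugar phosphates, had 2760 and 3321 CPM in wild type, 3551 and 3684 in atxr5/6, 2062 and 1797 in gcn5, and 1968 and 2017 in atxr5/6 gcn5. In gcn5 it fell as well (−0.66, SE 0.124, adjusted p = 0.00556).

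**Figure D3:**
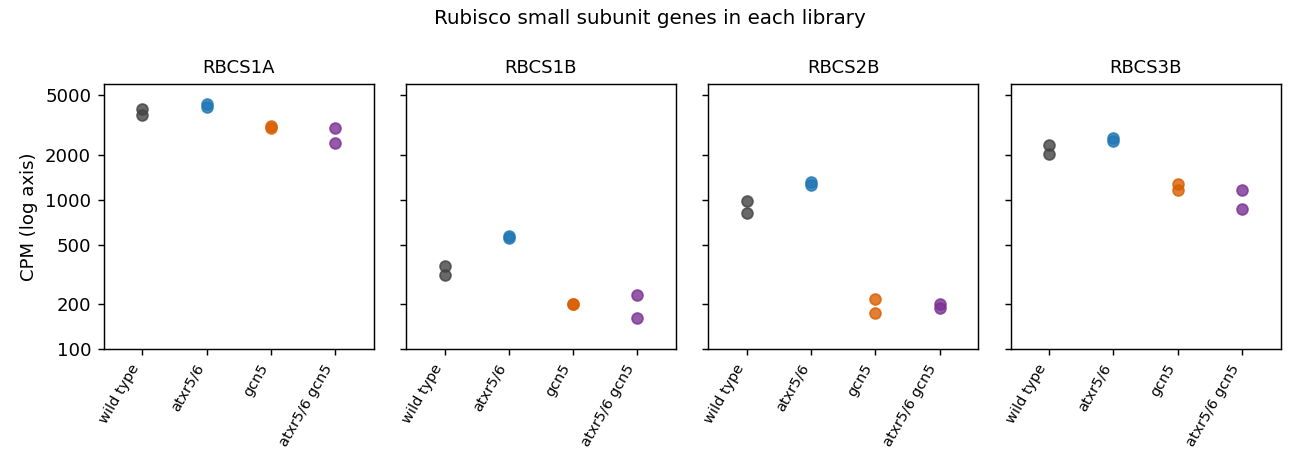
Level of each Rubisco small subunit gene in each of the 8 libraries, in CPM on a log axis, with a point for each library. RBCS2B drops from 819 and 983 CPM in wild type to 175 and 217 in gcn5, whereas RBCS1A lies between 2388 and 4396 CPM throughout.

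The make-up of the RBCS family differed between the libraries. RBCS2B held 12.7% and 11.9% of the family's counts in wild type, 14.8% and 14.9% in atxr5/6, 4.50% and 3.81% in gcn5, and 5.53% and 4.08% in atxr5/6 gcn5. RBCS1A held 52.4% and 53.8% in wild type, 49.5% and 49.3% in atxr5/6, 65.0% and 66.3% in gcn5, and 65.9% and 65.7% in atxr5/6 gcn5. Ratios within some other families, chosen after their values were seen and given without a test, also separated the libraries by the gcn5 label. The count of LHCB2.3 divided by that of LHCB2.2 was 0.310 to 0.361 without the label and 0.166 to 0.215 with it. The ratio of PSAE1 to PSAE2 was 2.24 to 2.38 against 1.29 to 1.34, and the ratio of LHCB1.4 to LHCB1.2 was 0.767 to 0.828 against 0.467 to 0.585. Such ratios do not depend on how the libraries are scaled. In the PSAD, PSAH and PSBO families the shares of the copies overlapped between libraries with and without the label. PSBO1 held 77.7% to 81.6% of its family's counts without the label and 80.6% to 82.3% with it. The sources used here do not say how reads that match several near-identical copies were counted, so the split between copies is less certain than their sum. Summed by family, LHCB1 (−0.65), LHCB2 (−0.78), PSAD (−0.62), PSAE (−0.61), PSAH (−0.52), PSBO (−0.57), PSBQ (−0.68) and RBCS (−0.64) all fell in gcn5, with adjusted p from 0.00247 to 0.0121 by edgeR.

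In atxr5/6 against wild type, photosynthesis genes showed no common direction. Of the 47 tested, 4 were called higher and 0 lower, or 8.51%, beside 13.2% called over all genes (5.48% higher and 7.69% lower). The median log2 fold change was 0.01, beside −0.01 for all genes, and SEs of single genes ranged from 0.0826 to 0.180. The 4 genes were RBCS1B (0.75, SE 0.153, adjusted p = 0.0184), RBCS2B (0.52, SE 0.131, adjusted p = 0.0376), LHCA6 and LHCB4.3 (above), and each was higher in both atxr5/6 libraries than in both wild-type libraries. None of the 4 calls held without atxr5/6 replicate 1 or without atxr5/6 replicate 2, where 0 of the 47 passed (5 with an unadjusted p under 0.05 in each case). Over all genes the calls then fell from 2578 to 168 and 212, or 0.840% and 1.06% of genes. Of the 4 calls, LHCB4.3 alone passed without wild-type replicate 2. On library totals RBCS1B alone passed. With the RBCS copies summed, the family stood at 0.25 (SE 0.141, adjusted p = 0.286 by edgeR). RBCS1A and RBCS3B, which hold most of the family's counts, had values of 0.15 and 0.21. The sum therefore cannot show whether the calls of RBCS1B and RBCS2B depend on the split between copies. Of the 47 genes, 18 had both atxr5/6 libraries above both wild-type libraries, 17 had both below, and 12 overlapped. Over all genes 29.6% lay above and 31.6% below, against 18 and 17 of the 47 here. The mesophyll markers CA1 and CA2 summed to 1227 and 1161 CPM in atxr5/6, above the 947.5 and 879 of wild type. Neither marker was called (median log2 fold change 0.39), though both had an unadjusted p under 0.05 by edgeR. The part of these markers in the atxr5/6 values was not tested.

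In atxr5/6 gcn5 the photosynthesis genes were below wild type, as in gcn5. Against wild type 45 of 47 were called lower and none higher, with 39.1% of all genes called (20.4% lower and 18.7% higher), and the median log2 fold change was −0.78. Here LHCB1.2, PSAG and RBCS1A, which had missed the threshold in gcn5, passed it, and LHCA6 and PSAE2 did not. The call of LHCB1.2 was lost without wild-type replicate 1 (adjusted p = 0.063) or atxr5/6 gcn5 replicate 1 (0.0621). That of RBCS1A was lost under the same omissions (0.0695 and 0.0557), both were lost on library totals and with only the compared genotypes in the fit, and PSAG was lost on library totals (0.0681). Against atxr5/6, 46 of 47 were called lower, PSAE2 being the exception, with 36.7% of all genes called (18.3% lower and 18.4% higher) and a median of −0.82. RBCS2B had the largest difference there, from 1312 and 1265 CPM to 200 and 188, or 6.63-fold. These comparisons share libraries with those above and are not independent of them. Against gcn5, none of the 47 was called by edgeR, beside 0.092% of all genes (0.0817% higher and 0.0102% lower), and DESeq2 called none. By edgeR, 2 of the 47 had an unadjusted p under 0.05, beside 1135 of all 19575 genes. The median log2 fold change was −0.11, and single values ran from −0.34 for PSAG (adjusted p = 0.516) to 0.56 for LHCB4.3 (adjusted p = 0.279), with SEs from 0.0832 to 0.181. With 1 library left out, this median ran from −0.20 (without atxr5/6 gcn5 replicate 2) to −0.0126 (without atxr5/6 gcn5 replicate 1), and it was −0.0257 without gcn5 replicate 1 and −0.00517 on library totals. That no gene passed does not show that the genotypes were alike.

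The interaction asks whether the change with the gcn5 label differed between plants with and without the atxr5/6 label. None of the 47 genes was called, beside 0.47% of all genes (0.266% higher and 0.204% lower), and DESeq2 called 1. By edgeR, 5 of the 47 had an unadjusted p under 0.05, beside 3506 of all 19575 genes. The median was −0.09 and the range −0.80 to 0.17. The 5 genes were LHCA6 (−0.62, SE 0.172, adjusted p = 0.137), PSAD1 (−0.33, adjusted p = 0.22), PSAG (−0.41, adjusted p = 0.139), RBCS1B (−0.80, SE 0.216, adjusted p = 0.13) and RBCS2B (−0.53, adjusted p = 0.202). RBCS1B was the gene that passed with DESeq2 (adjusted p = 0.0215), where 531 of all genes, or 2.71%, were called. It also passed in edgeR without a filter on low counts (0.0210), where 989 genes, or 3.70%, were called. Without atxr5/6 gcn5 replicate 2 the interaction was −1.07 for RBCS1B and −0.81 for LHCA6. In both genes the atxr5/6 libraries were the highest of the 4 genotypes.

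Other genes of the photosynthetic pathway were grouped in lists by known function. Of 11 genes for electron transport and ATP synthase, 6 fell and 0 rose in gcn5, and 2 rose and 0 fell in atxr5/6. These are 54.5% and 18.2% of the list, beside 37.5% and 13.2% of all genes called. PETC, the Rieske iron-sulfur protein of the cytochrome b6f complex, had 315 and 321 CPM in wild type, 385 and 382 in atxr5/6, 199 and 192 in gcn5, and 181 and 199 in atxr5/6 gcn5 (−0.70 in gcn5, SE 0.0845, adjusted p = 0.000973). LFNR1, a ferredoxin-NADP reductase, had 387 and 375 CPM in wild type, 437 and 441 in atxr5/6, 263 and 263 in gcn5, and 254 and 272 in atxr5/6 gcn5 (−0.54 in gcn5, SE 0.081, adjusted p = 0.00236). Both lay lower in every gcn5-labelled library than in any other. ATPD, a subunit of the ATP synthase, had 201 and 161 CPM in wild type and 271 and 267 in atxr5/6 (0.57, SE 0.127, adjusted p = 0.0246). ATPC1, another subunit, had 519 and 468 CPM in wild type and 671 and 646 in atxr5/6 (0.42, SE 0.105, adjusted p = 0.0374). Of 15 Calvin cycle genes, 11 fell and 0 rose in gcn5, or 73.3%, and the median of the 15 was −0.58. CP12-2, a small protein that binds Calvin cycle enzymes in the dark, had 95.2 and 95.7 CPM in wild type, 109 and 110 in atxr5/6, 47.4 and 47.5 in gcn5, and 53.4 and 48.1 in atxr5/6 gcn5 (−1.01 in gcn5, SE 0.0861, adjusted p = 0.000267). FBA1, a plastid aldolase, had 412 and 441 CPM in wild type, 652 and 649 in atxr5/6, 251 and 229 in gcn5, and 249 and 294 in atxr5/6 gcn5. It fell in gcn5 (−0.83, SE 0.107, adjusted p = 0.00125) and rose in atxr5/6 (0.61, SE 0.106, adjusted p = 0.0108). GAPB, a subunit of plastid glyceraldehyde phosphate dehydrogenase, had 610 and 557 CPM in wild type, 916 and 913 in atxr5/6, 397 and 389 in gcn5, and 351 and 448 in atxr5/6 gcn5. GAPB also fell in gcn5 (−0.57, adjusted p = 0.009) and rose in atxr5/6 (0.65, adjusted p = 0.014). The gcn5 call of GAPB was lost without gcn5 replicate 2 (adjusted p = 0.0564), and its atxr5/6 call also without wild-type replicate 2 (0.0599). FBA1 and GAPB were the 2 of 15 called in atxr5/6, or 13.3%, beside 13.2% of all genes. All 15 had log2 fold changes above 0 there, with a median of 0.27, beside −0.01 for all genes. Of the 15, 11 had an unadjusted p under 0.05 by edgeR, beside 5687 of all 19575 genes. The atxr5/6 calls of ATPD, ATPC1, FBA1 and GAPB were lost without either atxr5/6 replicate, as those above were. On library totals alone all but GAPB were lost. The atxr5/6 calls of ATPD and ATPC1 were lost without wild-type replicate 2 as well. That of ATPC1 was also lost without either gcn5 replicate and with a replicate block in the fit (adjusted p = 0.064 by edgeR).

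Chlorophyll synthesis genes moved in both directions. Of 23 listed, 22 were tested, GUN4 being filtered out. In gcn5, 10 rose, among them GSA1, HEMB1, HEMC and CHLI1, and 3 fell, and the median log2 fold change of the 22 was 0.27. The calls are 59.1% of the list, beside 37.5% of all genes (18.1% higher and 19.4% lower). On library totals alone 0 rose and 1 fell, while over all genes 1345 rose and 3493 fell. The count of higher genes depends on the scaling and on single libraries, being smaller without gcn5 replicate 2. PORA, a light-dependent protochlorophyllide oxidoreductase known from dark-grown seedlings, had 15.5 and 15.7 CPM in wild type, 16.9 and 15.5 in atxr5/6, 1.38 and 1.13 in gcn5, and 1.80 and 1.2 in atxr5/6 gcn5. In gcn5 it fell (log2 fold change −3.64, SE 0.183, adjusted p = 3.4e-05), more than any of the 47 photosynthesis genes tested. HEME2, a uroporphyrinogen decarboxylase, had 83.2 and 73.2 CPM in wild type and 128 and 126 in gcn5 (0.70, SE 0.106, adjusted p = 0.00234). On library totals its adjusted p was 0.0531. HEMA1, the glutamyl-tRNA reductase that opens the pathway, and CHLH, a magnesium chelatase subunit, were the other 2 that fell. In atxr5/6, HEMA1, CHLH and CAO, the enzyme that makes chlorophyll b, were called higher and none of the 22 lower, which is 13.6% of the list, beside 13.2% of all genes. Of the 22, 19 had log2 fold changes above 0 there and 3 below, with a median of 0.18. By edgeR 7 of them had an unadjusted p under 0.05. CHLH had 1274 and 1142 CPM in wild type and 1685 and 1687 in atxr5/6 (0.48, SE 0.110, adjusted p = 0.0273). CAO had 178 and 140 in wild type and 244 and 229 in atxr5/6 (0.57, SE 0.143, adjusted p = 0.0357). On library totals or without either atxr5/6 replicate none of the 22 was called in atxr5/6, and without wild-type replicate 2 neither CHLH nor CAO was.

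**Figure D4:**
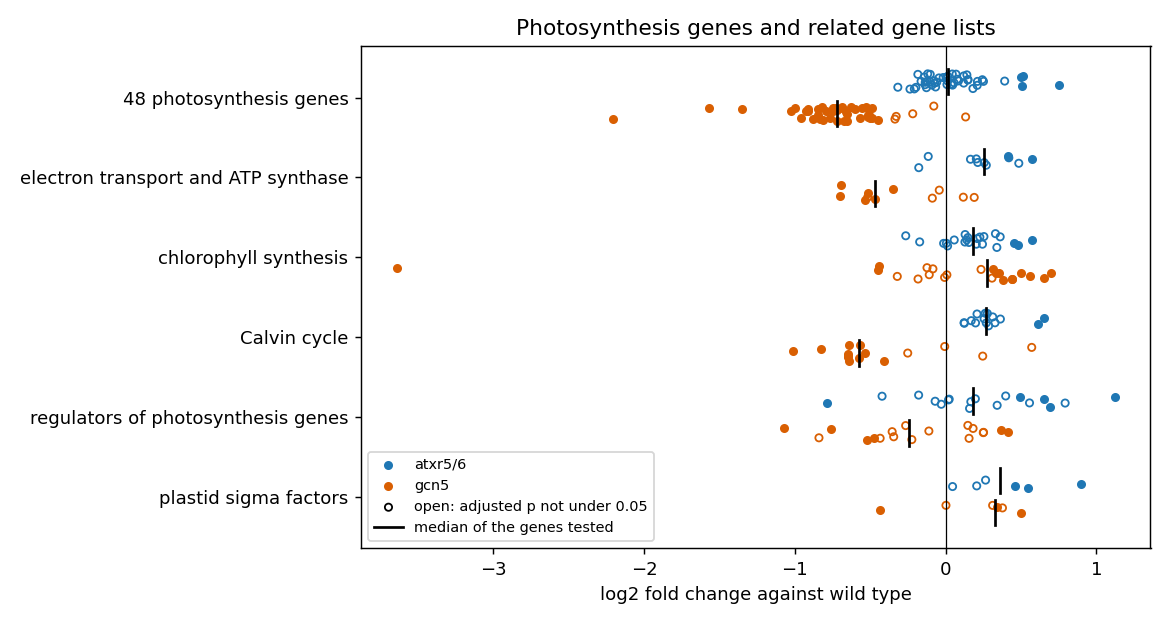
Log2 fold changes against wild type in atxr5/6 and gcn5 for the 47 tested of the 48 photosynthesis genes and the 5 related lists, with filled points for an adjusted p under 0.05 and a line for the median of the genes tested. The gcn5 points of the photosynthesis and Calvin cycle genes lie mostly left of 0, with medians of −0.72 and −0.58, and those of chlorophyll synthesis lie on both sides, with PORA at −3.64.

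Among 18 regulators of photosynthesis genes, 2 rose (PIF1 and GUN1) and 4 fell (GLK1, GNC, CCA1 and LHY) in gcn5, and 4 rose (HYH, GNC, COP1 and CCA1) and 1 fell (PHYA) in atxr5/6. The 33.3% called in gcn5 is below the 37.5% of all genes, and the 27.8% called in atxr5/6 is above 13.2%. On library totals the numbers in gcn5 were 0 and 4, while over all genes 1345 rose and 3493 fell. Fewer of the 18 were called in gcn5 without gcn5 replicate 2. GLK1, a transcription factor that switches on antenna and chlorophyll synthesis genes, had 79.0 and 102 CPM in wild type, 119 and 120 in atxr5/6, 42.2 and 44.1 in gcn5, and 40.5 and 46.0 in atxr5/6 gcn5. It fell in gcn5 (log2 fold change −1.07, SE 0.131, adjusted p = 0.00105). GUN1, a plastid protein of retrograde signalling, had 82.3 and 82.2 CPM in wild type and 104 and 108 in gcn5 (0.37, SE 0.0817, adjusted p = 0.0104), a call lost without either gcn5 replicate or wild-type replicate 2. CCA1, a morning-phased clock transcription factor, had 25.1 and 28.0 CPM in wild type, 42.1 and 41.3 in atxr5/6, 21.3 and 16.8 in gcn5, and 25.1 and 26.4 in atxr5/6 gcn5. It rose in atxr5/6 (0.65, SE 0.120, adjusted p = 0.0131) and fell in gcn5 (−0.48, SE 0.123, adjusted p = 0.0185). The gcn5 call was lost without wild-type replicate 2 (adjusted p = 0.0508) or gcn5 replicate 2 (0.112), and the atxr5/6 call without either atxr5/6 replicate. The time of day at which the leaves were taken is not given in the sources used here, and its part in these values was not tested. PHYA, a red and far-red photoreceptor, fell in atxr5/6 from 109 and 98.9 CPM to 59.6 and 60.9 (−0.79, SE 0.142, adjusted p = 0.0124), a call also lost without either atxr5/6 replicate.

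The sigma factors, nuclear-encoded subunits that direct the plastid RNA polymerase to its promoters, form the last list. Of 6, SIG1 and SIG6 rose and SIG5 fell in gcn5, and SIG1, SIG3 and SIG5 rose in atxr5/6. These are 50% of the list in each comparison, beside 37.5% and 13.2% of all genes called. On library totals none of the 6 was called in gcn5 and SIG1 was the only call in atxr5/6. Over all genes 24.7% and 10.1% were then called. SIG1 had 24.3 and 25.1 CPM in wild type, 45.2 and 47.0 in atxr5/6, 34.3 and 35.6 in gcn5, and 37.4 and 34.1 in atxr5/6 gcn5. The atxr5/6 libraries were the highest, and the call (log2 fold change 0.90, SE 0.0883, adjusted p = 0.00154) held under all 18 alternatives tried, the rDNA covariate among them. SIG5 had 27.7 and 32.1 CPM in wild type, 40.5 and 41.5 in atxr5/6, 22.6 and 21.4 in gcn5, and 21.9 and 25.4 in atxr5/6 gcn5. It rose in atxr5/6 (0.46, SE 0.109, adjusted p = 0.03) and fell in gcn5 (−0.44, SE 0.111, adjusted p = 0.0172). The gcn5 call of SIG5 was lost without wild-type replicate 2 or either gcn5 replicate, and its atxr5/6 call was lost without wild-type replicate 1, either atxr5/6 replicate or either gcn5 replicate.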

How the data were processed

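The deposited gene table holds raw read counts, judged from its values, all whole and summing differently by library. Per the submitters' processing notes the tools included STAR 2.7.2a and featureCounts 1.6.4, and the build TAIR10. Per the labels' protocols the libraries were stranded, from total RNA depleted of plant ribosomal RNA. The strand setting and the treatment of reads matching several places are not given in the sources used here.

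The counts were tested with edgeR 4.0.16 in R 4.3.3 (quasi-likelihood test, TMM sizes, filterByExpr at a minimum count of 10). Genotype was the only term of the fit, which took in all 8 libraries and left 4 residual degrees of freedom. P-values were adjusted by Benjamini-Hochberg over 19575 genes. CPM values use effective library sizes. SE comes from the log2 fold change and the F statistic, as its size over the root of F. Fold changes compare libraries per gene, and levels are not compared between genes, since transcript lengths were not used. For the interaction, the gcn5 effect without atxr5/6 is subtracted from the gcn5 effect with it. The procedure was tested on simulated data with a small set of genes changed in gcn5 alone. The simulation had no rDNA shift and far fewer changed genes than were called here. It therefore does not check the scaling of these libraries. Replicates differed by more than counting noise (chi-square per degree of freedom 21.5 to 84.6), so none was merged. That figure pools many genes, and how counting error compares with the spread at the lowest count of a tested member, 215, was not tested.

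Gene names and overlaps came from a RefSeq table for TAIR10.1, which lists 33056 of 33341 identifiers (99.1%). No coordinates are given because its build name differs from that in the notes. The rDNA share sums 9 features, the rRNA genes of that table and their neighbours.

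The members, lists, tests and alternatives were chosen with earlier results of these data known. Genes with values in every library are, for each role, the highest and lowest log2 fold change in atxr5/6 and in gcn5 against wild type, the paralogue pairs that differed most, untested members and, from each list, the 2 smallest p in each of those comparisons. RCA and the rest of the RBCS genes were added after their values were seen, as were the other genes named outside this rule. Alternatives were RLE and total-count scaling, other filters, DESeq2 1.42.0, smaller fits, a replicate block, an rDNA covariate, summed copies and each library left out.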

Additional observations from a re-analysis of the deposited data

Results flagged for a closer look

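SIG1, a plastid sigma factor, was flagged because its change with the gcn5 label differed between plants without and with the atxr5/6 label. It rose by 0.50 (log2 fold change) from wild type to gcn5 and fell by 0.37 from atxr5/6 to atxr5/6 gcn5. The interaction was −0.87 (SE 0.125, adjusted p = 0.0413, edgeR quasi-likelihood test). Both gcn5 libraries lay above both wild-type libraries, and both atxr5/6 gcn5 libraries lay below both atxr5/6 libraries. Over 17 alternatives the interaction kept its sign, from −0.94 to −0.80, and was called in 10, with adjusted p from 0.00178 to 0.287. It was lost without either atxr5/6 replicate, without either gcn5 replicate, on library totals (adjusted p = 0.177), with the replicate block (0.0706) and with the rDNA covariate (0.136).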

How the results depend on the processing

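The number of photosynthesis genes called in gcn5 against wild type (42), in atxr5/6 gcn5 against wild type (45) and in atxr5/6 gcn5 against atxr5/6 (46) stayed within 1.5 times under every alternative except the rDNA covariate, where each was 0, as calls over all genes fell to 0, 0 and 13. The medians were then −0.61 and −0.67 for the first 2, and −0.76 for the third. With this covariate ATPC1 turned from lower to higher in gcn5 (0.00696, adjusted p = 0.998). With near-identical copies summed, each copy was given the result of its family's sum. Counts of genes under that alternative therefore repeat the same test for several copies. On library totals the gcn5 median was −0.82, with the median of all genes at −0.09, and the median of atxr5/6 gcn5 against gcn5 was −0.00517. The 4 calls in atxr5/6 became 1 on library totals, 0 with the rDNA covariate, 2 with near-identical copies summed, and 0 to 5 with 1 library left out. Leaving out 1 library gave 35 to 44 calls in gcn5, a median of −0.88 to −0.72 in atxr5/6 gcn5 against wild type, and, in the interaction, 0 to 2 calls and a median of −0.20 to −0.0197. The interaction had 1 call without a filter on low counts and 1 with DESeq2, where 3.70% and 2.71% of all genes were called. Over all counts of the table instead of nuclear coding counts, the mean share was 7.57% in wild type and 7.69% in atxr5/6, against 4.33% in gcn5 and 4.31% with both labels. The causes of these changes were not tested, except that the last uses a larger total. Labels give no meaning to the shared replicate numbers. Deviations of same-numbered libraries correlated between −0.17 and 0.18 over genotype pairs. With a replicate block 4, 42, 45, 45, 0 and 0 genes were called in the comparisons in the order of the report, LHCB1.2 being lost against atxr5/6 (adjusted p = 0.0732), and with the wild-type numbers crossed, an alternative chosen after seeing the data, 45 were called in atxr5/6 gcn5 against wild type. Having 2 libraries per genotype limits the precision.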
